A study of Homo sapiens with 3 samples.

Results

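The BCL2 family, the caspases and the death kinases were examined in enzalutamide-resistant and abiraterone-resistant prostate cancer cells. The set held 36 cell death genes, which were chosen with earlier results of these data known. Every probe set that the array annotation assigns to one of them was taken. Expression was measured for 35 of the 36, out of 19775 genes read in all, by 110 probe sets annotated to 1 gene each. A probe set is a group of short array probes that reads 1 transcript, and 25 of the 35 genes had 2 or more. RIPK1 was not analysed here. A further 4 probe sets were annotated to a member together with other genes and were left out of the gene values.

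Total RNA was hybridized to Affymetrix HG-U133 Plus 2.0 arrays, 1 array for each of 3 lines. C4-2B MDVR cells are an enzalutamide-resistant subline maintained in 20 µM enzalutamide, which keeps androgen off its receptor. C4-2B AbiR cells are an abiraterone-resistant subline maintained in 10 µM abiraterone acetate, which inhibits androgen synthesis. C4-2B parental cells, their reference, are an established castration-resistant line derived from LNCaP and, per the study's methods, were passaged in parallel with the sublines. Each line is represented by 1 array, so that drug, history of selection and array cannot be told apart, and no replicate error or test can be given. A centred log2 value is the array's value relative to the middle of the arrays for that probe set, and it carries no expression level. The differences between arrays are therefore the measurement. In bulk RNA, fewer cells with a transcript and less transcript per cell cannot be told apart.

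Apoptosis is run by caspases, proteases that are activated along a mitochondrial or a death receptor route. In the mitochondrial route, anti-apoptotic BCL2 proteins hold back the pore formers BAX and BAK1, BH3-only proteins relieve that block, and released cytochrome c assembles APAF1 and caspase-9 into the apoptosome. In the receptor route, ligands such as TRAIL recruit FADD and caspase-8, and the caspase-like protein encoded by CFLAR restrains them. Necroptosis is a lytic death carried out by RIPK3 and MLKL, and the death-associated protein kinases are kinases of stress, autophagy and cell death.

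Technical noise was judged from 45 spiked bacterial control probe sets. Their differences had an SD of 0.13 on the log2 scale where MDVR was set against parental cells, 0.10 for AbiR against parental cells and 0.12 for MDVR against AbiR. The largest absolute values were 0.35, 0.20 and 0.34. Over all genes, the SD between probe sets of the same gene was larger, at 0.35, 0.28 and 0.34 in that order. The 3′ minus 5′ signal of ACTB, a sign of RNA quality, differed from the parental array by −0.22 in the MDVR and by −0.12 in the AbiR array, and that of GAPDH differed by −0.047 and 0.061. Its part in the results was not tested. Whether lineage markers were present could not be read from centred values. As differences, 7 luminal markers ranged between −4.07 (KLK3, the prostate-specific antigen gene) and 0.37 in MDVR and between −3.17 and 0.30 in AbiR. The 3 leukocyte markers stayed within −0.17 and 0.15 in both, and the 3 fibroblast markers within −0.053 and 0.44.

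DAPK1 stood apart from the other members. It encodes a calcium/calmodulin-regulated serine/threonine kinase that promotes cell death and autophagy and is silenced by promoter methylation in many tumours. Its first probe set had centred values of 6.02 in MDVR, 0.068 in AbiR and −0.10 in parental cells. The second had 3.07 in MDVR, −0.37 in AbiR and −0.097 in parental cells. The MDVR array alone was high in both. The AbiR minus parental differences of the probe sets, 0.17 and −0.27, had opposite signs. In size the second exceeded 0.20, the largest spiked control value of that comparison. The gene was 25.0-fold higher in MDVR than in parental cells (log2 difference 4.64 ± 2.09, SD between 2 probe sets). It was 25.8-fold higher in MDVR than in AbiR cells (4.69 ± 1.78), and its AbiR minus parental difference was −0.050 ± 0.31. Of all 19775 genes, 99.97% had a lower MDVR minus parental difference. Both probe sets gave the same direction in MDVR, and their differences of 6.12 and 3.16 leave the size loosely set.

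DAPK1 was the only member at least 2-fold higher in MDVR than in parental cells, 1 of 35 against a background of 1.65% of all genes, and 0 members were at least 2-fold lower, where the background was 1.67%. In AbiR cells 0 members were at least 2-fold higher and 0 lower than in parental cells, against 1.07% and 0.804% of all genes. Between the sublines, DAPK1 was at least 2-fold higher in MDVR than in AbiR (background 0.875%) and TNFSF10 at least 2-fold lower (background 1.13%). With a 1.5-fold limit, BID, BIK and DAPK1 were higher in MDVR than in parental cells (3 of 35, background 4.81%) and TNFSF10, TNFRSF21 and CASP8 lower (3 of 35, background 5.15%). In AbiR, TNFSF10 was higher (background 3.32%) and TNFRSF21 lower (background 2.52%) at that limit. For MDVR minus AbiR the limit took in DAPK1 in the positive direction (background 2.77%) and TNFSF10 and CASP8 in the negative (background 3.96%). With 35 genes, these counts of 0 to 3 are too small to set the members apart from all genes.

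**Figure D1:**
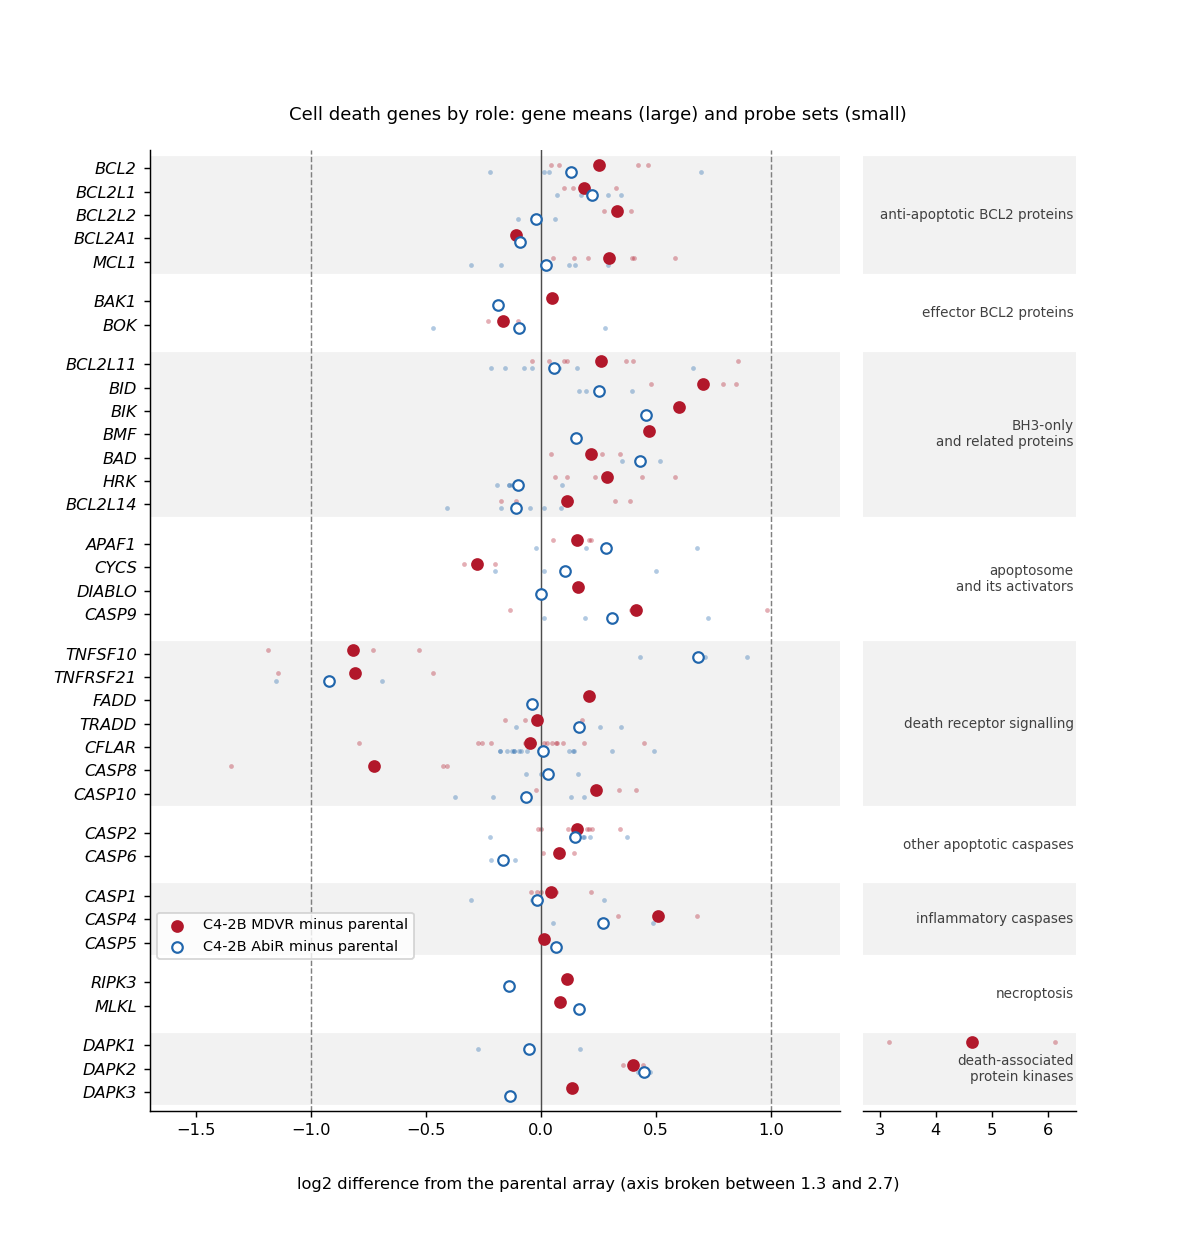
Log2 difference from the parental array (x axis, broken) for the 35 measured genes (y axis) grouped by role, with MDVR as filled and AbiR as open symbols (a single array each); large symbols are gene means, small ones single probe sets, dashed lines 2-fold. DAPK1 in MDVR, at 4.64, lies alone beyond the break, and TNFSF10 is at −0.81 in MDVR and 0.68 in AbiR.

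The stretches upstream of 3 of the genes with the largest differences are shown because they differ in kind. Each is the 250 bases before the most upstream start listed for the gene in the RefSeq promoter table (GRCh38.p14), written 5′ to 3′ on the gene's strand. Capitals in DAPK1 and TNFRSF21 mark CG dinucleotides, the sites of DNA methylation. In TNFSF10 they mark TTTCAGTTTC, which matches the core of the interferon-stimulated response element on the other strand, and the TATA box TATAAA. The core is read as a pair of GAAA blocks with any 2 bases between them. An entry was found for 29 of the 36 members.
DAPK1, chr9:87497617-87497866 (+): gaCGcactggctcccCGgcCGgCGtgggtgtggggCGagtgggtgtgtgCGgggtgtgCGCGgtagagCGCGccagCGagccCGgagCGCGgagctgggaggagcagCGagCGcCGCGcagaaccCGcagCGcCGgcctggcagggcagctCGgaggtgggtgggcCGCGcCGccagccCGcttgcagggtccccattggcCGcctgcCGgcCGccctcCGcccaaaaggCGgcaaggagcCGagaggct
TNFRSF21, chr6:47309906-47310155 (-): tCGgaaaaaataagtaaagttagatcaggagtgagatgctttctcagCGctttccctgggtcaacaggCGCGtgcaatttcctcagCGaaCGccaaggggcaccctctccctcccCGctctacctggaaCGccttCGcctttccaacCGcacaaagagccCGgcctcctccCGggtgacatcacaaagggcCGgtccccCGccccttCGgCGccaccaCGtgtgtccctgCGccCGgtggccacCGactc
TNFSF10, chr3:172523431-172523680 (-): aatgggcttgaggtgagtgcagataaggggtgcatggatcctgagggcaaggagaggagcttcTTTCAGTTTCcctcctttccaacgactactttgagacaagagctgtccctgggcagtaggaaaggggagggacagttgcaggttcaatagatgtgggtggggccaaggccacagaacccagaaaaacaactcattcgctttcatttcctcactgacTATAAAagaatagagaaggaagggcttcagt
The DAPK1 stretch held 32 CG dinucleotides, the TNFRSF21 stretch 20 and the TNFSF10 stretch 2, against a median of 11 over 35116 promoter windows of 250 bases. As many as in DAPK1 or more were found in 9.52% of windows, and as few as in TNFSF10 or fewer in 22.9%. The response element core occurred on either strand in 3.02% of windows and TATAAA in 10.7%, and the TNFSF10 matches did not overlap. Both strands were searched. Neither motif was in the DAPK1 or TNFRSF21 stretch. CACGTG, the E-box, was in the TNFRSF21 stretch only (6.35% of windows), and AGAACA, the half-site of the androgen response element, was in none of the 3 (12.4% of windows). Members with smaller differences had the same features. The BCL2A1 stretch held 2 CG dinucleotides, 1 response element core and 1 TATAAA, as in TNFSF10. The FADD stretch held 32 CG dinucleotides, as in DAPK1. These are descriptions of letters, since methylation and binding were not measured.

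The other death-associated protein kinases had far smaller differences. DAPK2, a smaller calmodulin-regulated relative, had values of 0.18 in MDVR, 0.25 in AbiR and −0.18 in parental cells by one probe set and of −0.016, 0.016 and −0.46 by the other. Both sublines were higher than parental cells by both probe sets, by 0.40 ± 0.063 in MDVR and 0.45 ± 0.037 in AbiR, past the largest spiked control value of each comparison. DAPK3, a kinase of myosin light chain and cell death without the calmodulin domain, had a single probe set of its own, at 0.20 in MDVR, −0.067 in AbiR and 0.067 in parental cells. A pair of probe sets annotated to DAPK3 together with the microRNA gene MIR637 had MDVR minus parental differences of 0.065 and 0.13 and AbiR minus parental differences of 0.28 and 0.093.

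**Figure D2:**
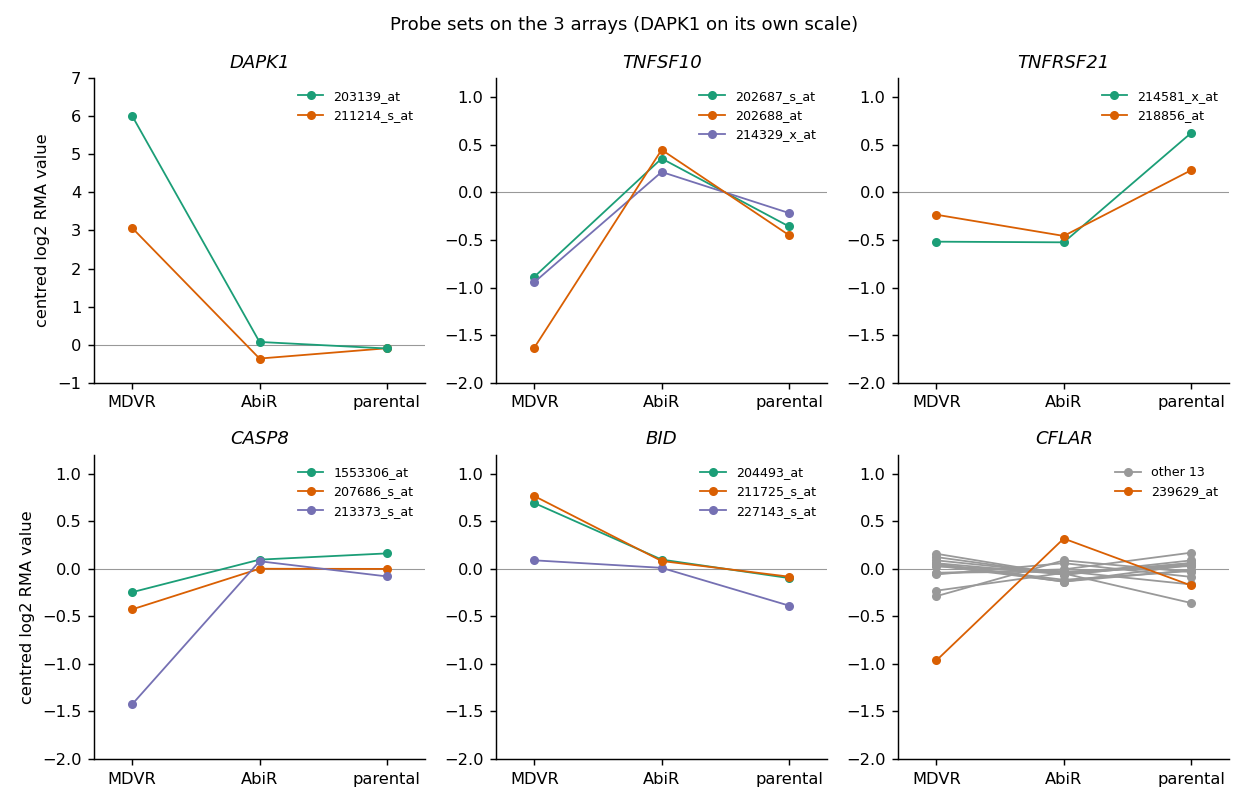
Centred log2 values (y axis, DAPK1 on its own scale) of each probe set of 6 genes on the MDVR, AbiR and parental arrays (x axis); each line is 1 probe set, and for CFLAR the probe set with the largest difference is coloured. TNFSF10 is lowest in MDVR and highest in AbiR by all 3 probe sets, and 1 of the 3 CASP8 probe sets, at −1.43 in MDVR, lies far below the others.

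Death receptor signalling held the members with the largest negative differences. TNFSF10 encodes TRAIL, a death ligand of the TNF family. Its probe sets had values of −0.89, −1.63 and −0.94 in MDVR, of 0.36, 0.45 and 0.22 in AbiR and of −0.36, −0.45 and −0.22 in parental cells. The 3 lines kept the same order in each probe set, with MDVR lowest, parental between and AbiR highest. TNFSF10 was 1.76-fold lower in MDVR than in parental cells (−0.81 ± 0.34), 1.60-fold higher in AbiR than in parental cells (0.68 ± 0.23) and 2.82-fold lower in MDVR than in AbiR (−1.50 ± 0.51). For the last difference 0.41% of all genes were lower.

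TNFRSF21, or death receptor 6, was lower in both sublines. Its probe sets had values of −0.52 and −0.23 in MDVR, −0.52 and −0.46 in AbiR and 0.63 and 0.23 in parental cells. The parental array was the highest in both, and the sublines lay close together. The differences were −0.81 ± 0.48 for MDVR minus parental and −0.92 ± 0.32 for AbiR minus parental, and 0.91% of all genes had a lower AbiR minus parental difference. Both differences rest on the same parental array.

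CASP8, the initiator caspase of the receptor route, was lower in the MDVR array. Its probe sets read −0.25, −0.43 and −1.43 in MDVR, 0.097, 0.00086 and 0.080 in AbiR and 0.16, −0.00086 and −0.080 in parental cells. MDVR was lowest by all 3, whereas AbiR and parental cells were nearly level. The MDVR minus parental difference was −0.73 ± 0.54 and the AbiR minus parental difference 0.032 ± 0.12. The probe sets were at −0.41, −0.43 and −1.35, so that the 1.5-fold difference rested on the third alone. The median of the probe sets, −0.43, and the only one without a suffix for shared transcripts, −0.41, did not reach it. CASP10, a close relative of CASP8, had mean values of 0.23 in MDVR, −0.077 in AbiR and −0.012 in parental cells over 4 probe sets. Its difference from parental cells was 0.24 ± 0.19 in MDVR and −0.065 ± 0.27 in AbiR, and probe sets of CASP10 went both ways in each.

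CFLAR encodes FLIP, which competes with caspase-8 at the receptor. Its mean difference over 14 probe sets was −0.048 ± 0.28 in MDVR and 0.0081 ± 0.20 in AbiR. One of them had values of −0.96 in MDVR, 0.32 in AbiR and −0.18 in parental cells, a MDVR minus AbiR difference of −1.28, while the other 13 lay between −0.38 and 0.22. Which CFLAR transcript this probe set reads was not tested. CFLAR, CASP10 and CASP8 are consecutive protein-coding genes in RefSeq on chromosome 2, and the 3 means did not move in 1 direction in MDVR. The adaptors FADD and TRADD had MDVR minus parental differences of 0.21 and −0.015 ± 0.17 and AbiR minus parental differences of −0.038 and 0.17 ± 0.24.

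The BH3-only members of the set and the related BCL2L14 had positive MDVR minus parental differences in 7 of 7 genes, with a median of 0.29. The BH3-only gene PMAIP1, outside the set, went the other way, at −0.54 ± 0.15 in MDVR and −0.34 ± 0.021 in AbiR. It was 1 of 8 other BCL2 family genes measured, of which 3 were above 0 and 5 below in MDVR (median −0.011). Over all genes the median was 0.044 and 57.4% were above 0. In AbiR 5 of the 7 were positive, with a median of 0.15, against −0.011 over all genes, of which 47.4% were above 0. BID, which is cut by caspase-8 and carries the signal to mitochondria, was highest in MDVR. Its probe sets read 0.69, 0.77 and 0.090 in MDVR, 0.097, 0.082 and 0.010 in AbiR and −0.097, −0.082 and −0.39 in parental cells. The order MDVR, AbiR, parental held in all 3, and the difference was 0.70 ± 0.20 in MDVR and 0.25 ± 0.13 in AbiR.

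BIK, a BH3-only protein of the endoplasmic reticulum, read 0.25 in MDVR, 0.11 in AbiR and −0.35 in parental cells by its single probe set. Both sublines were above parental cells, by 0.60 and 0.46. BMF, a BH3-only protein linked to the actin motor complex, read 0.35 in MDVR, 0.034 in AbiR and −0.12 in parental cells, differences of 0.47 and 0.15. BAD, which links growth factor signals to BCL2 proteins through its phosphorylation, was higher by 0.22 ± 0.15 in MDVR and 0.43 ± 0.083 in AbiR, and all 3 of its probe sets were above parental cells in both. BCL2L11, which encodes BIM, was at 0.26 ± 0.31 in MDVR and 0.059 ± 0.29 in AbiR over 7 probe sets, of which 6 were positive in MDVR. HRK was at 0.29 ± 0.22 in MDVR, positive in all 5 probe sets, and at −0.10 ± 0.11 in AbiR. BCL2L14 had the lowest values of the group in MDVR, 0.11 ± 0.22, and in AbiR, −0.11 ± 0.17, and its 6 probe sets went both ways in each. Their mean values were 0.16 in MDVR, −0.058 in AbiR and 0.049 in parental cells. Apart from BID, BIK and BMF in MDVR, and BID, BIK and BAD in AbiR, these values did not exceed the largest spiked control difference.

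The anti-apoptotic BCL2 proteins had medians of 0.25 in MDVR and 0.021 in AbiR over 5 genes. MCL1, a short-lived protector of mitochondria, was at 0.30 ± 0.20 in MDVR, positive in all 6 probe sets, and at 0.021 ± 0.22 in AbiR. BCL2, the founding member, was at 0.25 ± 0.22 and 0.13 ± 0.39, and the 4 probe sets were all positive in MDVR. BCL2L1, which encodes BCL-XL, was at 0.19 ± 0.099 in MDVR and 0.22 ± 0.12 in AbiR, positive in all 4 probe sets in both. Its mean values were 0.081 in MDVR, 0.11 in AbiR and −0.11 in parental cells. BCL2L2, which encodes BCL-W, read 0.43 and 0.24 in MDVR, −0.064 and 0.030 in AbiR and 0.036 and −0.030 in parental cells, so that MDVR was highest by both probe sets, with a difference of 0.33 ± 0.083. BCL2A1, an NF-kB target of blood cells, read −0.017 in MDVR, 0 in AbiR and 0.089 in parental cells, and was lowest of the group with differences of −0.11 and −0.089. All 5 MDVR differences lay within the largest spiked control value of 0.35, and in AbiR only BCL2L1 exceeded the 0.20 of that comparison.

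The effector BAK1, which forms pores in the mitochondrial outer membrane, read 0.14 in MDVR, −0.092 in AbiR and 0.092 in parental cells. BOK, a related effector, read 0.0071 and −0.18 in MDVR, −0.23 and 0.20 in AbiR and 0.24 and −0.077 in parental cells, and its probe sets disagreed in AbiR. Neither gene differed from parental cells by more than the spiked controls in either subline.

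In the apoptosome group, CASP9, the initiator caspase of the mitochondrial route, had the highest means but depended on the probe set. It read 0.22, 0.12 and −0.067 in MDVR, −0.034, −0.079 and 0.079 in AbiR and −0.76, −0.27 and 0.067 in parental cells. The first probe set was higher than parental cells by 0.98 in MDVR and 0.73 in AbiR, and the third differed by −0.13 and 0.012. The third is the only one without a suffix for shared or similar transcripts, so that the direction in MDVR turns when the other probe sets are left out. CYCS, which encodes cytochrome c, had its lowest mean in MDVR. It read −0.098, −0.34 and −0.34 in MDVR, −0.099, 0.0066 and 0.46 in AbiR and 0.098, −0.0066 and −0.047 in parental cells. By the first probe set MDVR and AbiR were level. CYCS was lower than parental cells by all 3 probe sets in MDVR (−0.28 ± 0.071), and the probe sets disagreed in AbiR (0.11 ± 0.36). APAF1, the scaffold of the apoptosome, was at 0.16 ± 0.092 in MDVR and 0.28 ± 0.36 in AbiR, where 1 of 3 probe sets was at 0.68. DIABLO, which encodes the mitochondrial antagonist of the inhibitor of apoptosis proteins, read 0.16 in MDVR, 0.00082 in AbiR and −0.00082 in parental cells by its single probe set.

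Among the remaining caspases, CASP4 had the largest differences. It encodes a caspase that senses intracellular lipopolysaccharide in pyroptosis. It read 0.096 and 0.19 in MDVR, −0.096 and −0.093 in AbiR and −0.58 and −0.15 in parental cells. Parental cells were lowest by both probe sets, and the differences were 0.51 ± 0.24 in MDVR and 0.27 ± 0.31 in AbiR. CASP5 and CASP1, its neighbours on chromosome 11 with no other protein-coding gene between them in RefSeq, differed little. CASP5 read −0.021 in MDVR, 0.033 in AbiR and −0.035 in parental cells, differences of 0.014 and 0.068. CASP1, which matures interleukin-1 beta, had mean values of −0.0093 in MDVR, −0.072 in AbiR and −0.054 in parental cells over 5 probe sets, differences of 0.045 ± 0.11 and −0.018 ± 0.20. These genes are similar in sequence, and probe sets with the suffix _x or _s may cross-read. CASP2, a caspase of centrosome and DNA damage responses, had mean values of 0.0031 in MDVR, −0.0053 in AbiR and −0.15 in parental cells over 7 probe sets. Its mean differences from parental cells were 0.16 ± 0.13 in MDVR and 0.15 ± 0.18 in AbiR. Neither exceeded the largest spiked control value, and 1 of the 7 probe sets was negative in both (−0.011 and −0.22). CASP6, an effector caspase, read 0.073 and 0.0047 in MDVR, −0.29 and −0.12 in AbiR and −0.073 and −0.0047 in parental cells, so that AbiR was lowest by both probe sets.

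The necroptosis genes were nearly level. RIPK3, the kinase that phosphorylates MLKL, read 0.18 in MDVR, −0.068 in AbiR and 0.068 in parental cells. MLKL, which breaks the plasma membrane, read 0.0019 in MDVR, 0.083 in AbiR and −0.083 in parental cells. All 4 differences from parental cells were below 0.20, the largest spiked control value of the AbiR comparison, in absolute size.

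Across the 35 genes, the median difference was 0.16 for MDVR minus parental, against 0.044 over all genes, and 27 were above 0. It was 0.032 for AbiR minus parental, against −0.011, with 21 above 0. For MDVR minus AbiR it was 0.12, against 0.054, with 22 above 0. Over all genes, 57.4%, 47.4% and 59.9% were above 0 in the same order. Since the members were chosen with earlier results of these data known, these figures are descriptions only. In MDVR 10 members exceeded the largest spiked control difference, 7 above and 3 below, a share of 23.0% being found over all genes. In AbiR it was also 10, 9 above and 1 below, against 33.0% of all genes. Of the 25 members with 2 or more probe sets, all probe sets lay on 1 side in 17 where MDVR was set against parental cells, in 9 for AbiR against parental cells and in 13 for MDVR against AbiR. Over all genes the shares were 49.0%, 48.0% and 44.6%.

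**Figure D3:**
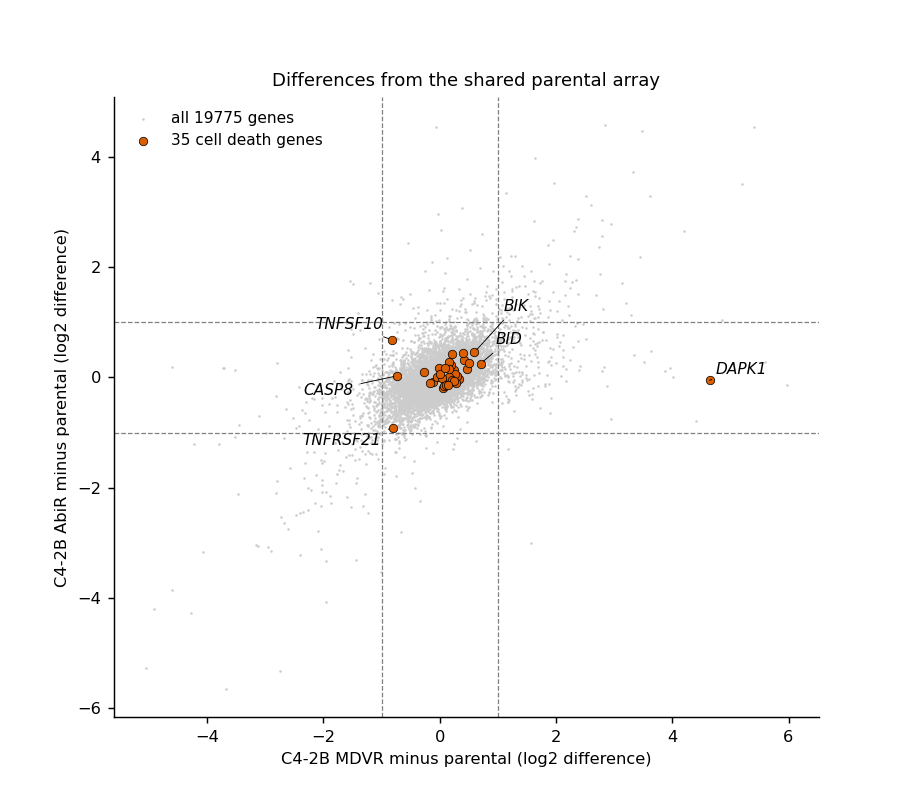
MDVR minus parental (x axis) plotted against AbiR minus parental (y axis), as log2 differences, for all 19775 genes (grey) and the 35 cell death genes (orange), with dashed lines at 2-fold; both axes share the parental array. DAPK1 lies at 4.64 and −0.050, and all other members, TNFSF10 at −0.81 and 0.68 included, lie inside the 2-fold lines of both axes.

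Of 76 other genes of cell death pathways, listed by function, 70 were measured. GSDME encodes a gasdermin cut by caspase-3 into a pore former. By the mean over probe sets, GSDME was the only one at least 2-fold different from parental cells in either subline. By the median over probe sets, FAS also passed that limit in AbiR, at 1.09. GSDME had a single probe set and read 1.72 in MDVR, −0.43 in AbiR and −1.57 in parental cells. It was 9.74-fold higher in MDVR and 2.19-fold higher in AbiR than in parental cells, and 4.44-fold higher in MDVR than in AbiR. The 70 genes had medians of 0.040 in MDVR and −0.052 in AbiR, with 38 and 25 above 0. Over all genes the medians were 0.044 and −0.011, with 57.4% and 47.4% above 0. The 8 mitochondrial death proteins had negative differences in 7 in MDVR (median −0.20) and in 8 in AbiR (median −0.17). Over all 19775 genes, 8392 were below 0 in MDVR and 10357 in AbiR. The 6 inhibitor of apoptosis proteins had medians of −0.13 and 0.075. Their MDVR minus AbiR differences were negative in all 6, as in 7895 of the 19775 genes. They ranged from −0.73 ± 0.38 (NAIP) to −0.011 ± 0.28 (BIRC5). Only NAIP and XIAP (−0.44 ± 0.47) exceeded 0.34 in size, the largest spiked control value of that comparison.

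**Figure D4:**
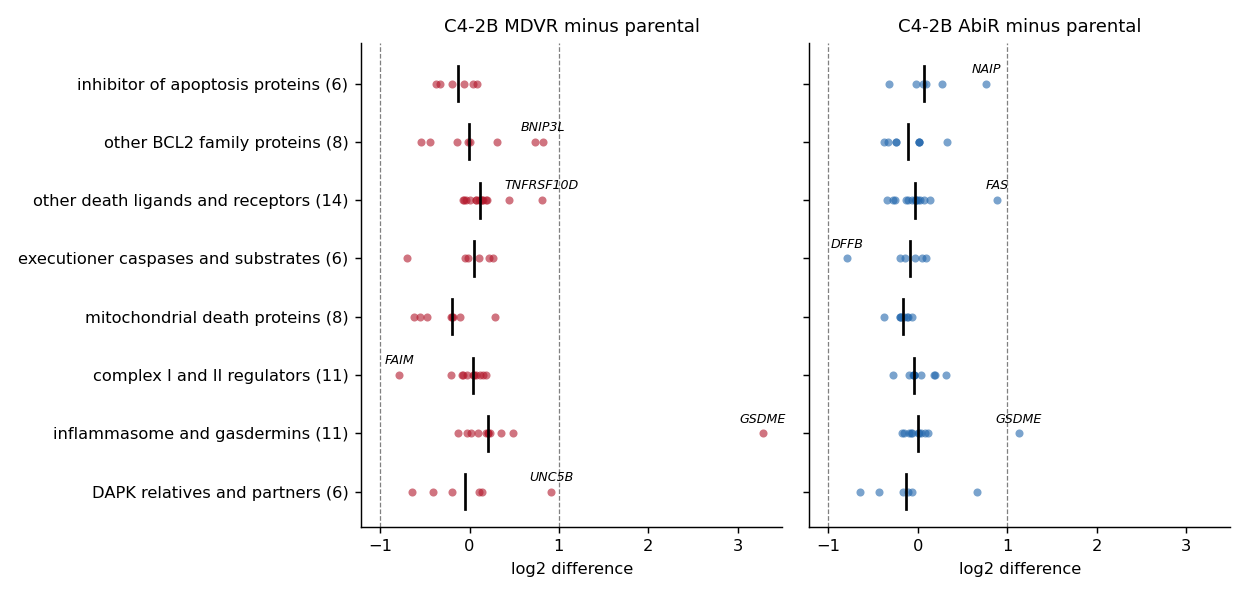
Log2 difference from the parental array (x axis) of 70 other cell death genes in 8 lists (y axis, number measured in brackets) for C4-2B MDVR (left) and C4-2B AbiR (right), 1 array per line, with list medians as black bars and dashed lines at 2-fold; genes at 0.75 or beyond are named. GSDME is the only gene beyond a dashed line, at 3.28 and 1.13.

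The receptors and ligands outside the set had 11 of 14 genes above 0 in MDVR (median 0.12) and 4 of 14 in AbiR (median −0.026), against 57.4% and 47.4% of all genes. FAS, the death receptor of Fas ligand, was at 0.19 ± 0.32 in MDVR and 0.89 ± 0.59 in AbiR over 5 probe sets. In AbiR the FAS probe sets ranged from −0.13 to 1.35. Their median of 1.09 was past 2-fold, so the 2-fold call for FAS depended on how probe sets were combined. TNFRSF10D, a decoy receptor of TRAIL, was at 0.81 in MDVR and 0.065 ± 0.15 in AbiR. BAX, the partner of BAK1, was at 0.74 ± 0.17 in MDVR and 0.014 ± 0.083 in AbiR. FAS, TNFRSF10D, BAX, PMAIP1, NAIP, XIAP and BIRC5 were picked for naming after their values were seen.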

How the data were processed

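Gene expression of C4-2B MDVR, C4-2B AbiR and C4-2B parental cells was measured on 1 Affymetrix HG-U133 Plus 2.0 array each, and each group is as its label names it. The authors deposited log2 values for 54675 probe sets. The submitters' processing notes name RMA, and its version is not given in the sources used here. The method corrects background, normalizes arrays and summarizes probes. The deposited log2 values are also centred for each probe set, which removes expression levels. All of them could come from a median of 4 arrays set to 0 (tolerance 2e-06), so the centring may have used 1 array not analysed here. No filter on low signal was possible, and the number of arrays limits the precision.

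Gene names came from the annotation of the array platform and were updated through gene IDs in RefSeq (GRCh38.p14, 99.9% of single-gene probe sets matched). The 41097 probe sets with 1 symbol were averaged per gene, and log2 differences were taken between arrays. Without replicates there is no test. At least 2-fold and 1.5-fold differences were counted over members and over all genes. The genes described with array values were members at least 2-fold different in any comparison and the highest and lowest of each role group, with means over probe sets where a gene had more than 3, in place of every probe set. CASP8, BMF and 1 CFLAR probe set were added after their values were seen. Genes outside the set were named where at least 2-fold different, with the exceptions stated. The members and lists were chosen with earlier results of these data known. The steps were tested on simulated data, with known changes put into all probe sets of a gene. The simulated noise was set from the spiked controls (SD 0.13 for MDVR minus parental). Probe sets of a gene differ more than that in the real data (0.35), so the test checks the calculation only. Python 3.11.15, pandas 2.3.3, numpy 2.4.6 and matplotlib 3.10.9 were used. The alternatives were the median of probe sets, probe sets without suffix _s, _x or _a, centring of arrays on their median or on spiked controls, genes with 2 or more probe sets in 1 direction, and a 1.5-fold limit.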

Additional observations from a re-analysis of the deposited data

Results flagged for a closer look

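TNFSF10 moved in opposite directions in the sublines, lower in MDVR and higher in AbiR than in parental cells by all 3 probe sets, with a MDVR minus AbiR log2 difference of −1.50. The difference was not tested, since each line had 1 array. A probe set annotated jointly to DAPK3 and MIR637, which entered no gene value, had an AbiR minus parental difference of 0.28, above the largest spiked control value of 0.20. The second joint probe set was at 0.093 and the DAPK3 probe set of its own at −0.13.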

How the results depend on the processing

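DAPK1 was the member at least 2-fold higher in MDVR than in parental and AbiR cells under all 5 alternatives that keep the 2-fold limit. The count of members at least 2-fold lower in MDVR than in parental cells was 1, TNFSF10, in place of 0 when the suffixed probe sets (_s, _x, _a) were dropped, where 31 members have a value. In that setting TNFSF10 was at −1.19 and DAPK1 at 6.12 in MDVR relative to parental cells. With the 1.5-fold limit there were 3 members higher and 3 lower in MDVR, 1 higher and 1 lower in AbiR than in parental cells, and 2 lower in MDVR than in AbiR. Of the members past 1.5-fold in MDVR relative to parental cells, CASP8 did not reach it by the median of probe sets (−0.43) or without suffixed probe sets (−0.41), nor TNFRSF21 without suffixed probe sets (−0.47), nor BIK with arrays centred on their median (0.57) or on spiked controls (0.56). CASP8 also fell short against AbiR cells by the median of probe sets (−0.43) and without suffixed probe sets (−0.34). The AbiR minus parental median was 0.27 over the 9 members whose probe sets lay in 1 direction, against 0.032 over all, and −0.00060 with arrays centred on spiked controls. The direction of that median is therefore not settled. CASP9 in MDVR was at −0.13 without suffixed probe sets, the only member beyond the spiked control range to change sign. Centring moved the median of all genes by less than 0.1 in every comparison. No paired analysis was possible because each line had 1 array, and leaving out a replicate was not possible for the same reason.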
